A study of Mus musculus with 16 samples.

Results

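The keratin genes of mouse skin were followed in 2 deposited expression tables, one of whole back skin and one of sorted hair follicle stem cells. All genes whose symbol is Krt followed by a number, with or without a final letter, were taken, which gave 54 genes among 55357 gene rows in the skin table and 56953 in the stem cell table. They comprised 28 type I and 26 type II keratins. By where they (for Krt42, its relative Krt17) are best known, 3 were grouped as basal, 8 as suprabasal, 5 as stress keratins, 2 as companion layer and upper follicle keratins, 8 as inner root sheath keratins, 16 as hair shaft keratins, 6 as simple epithelial and 4 as mucosal or corneal keratins, and 2 were left unclassed. The mice were C57BL/6 and either control or GRK2 eKO, the labels' name for the mutant of the G protein-coupled receptor kinase GRK2. The labels spell out neither eKO nor the driver of the deletion, and give no allele for the controls. Whole back skin came from 5 control and 5 eKO samples labelled as 8 months old. CD34+ α6-integrin+ bulge cells, called HFSC in the following text, were sorted by flow cytometry from 3 control and 3 eKO samples labelled as 18 months old. The design text of the series states 8 months for these cells too.

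Keratins are the intermediate filament proteins of epithelial cells. Each filament is built from pairs of 1 type I and 1 type II chain, and the pair in use changes with the layer and the differentiation state of the cell. Basal keratinocytes use Krt5 with Krt14, spinous cells switch to Krt1 with Krt10, and the bulge, where follicle stem cells reside, is rich in Krt15. The inner root sheath and the hair shaft each have a set of their own that is made while hair grows, and Krt6, Krt16 and Krt17 are induced by wounding and other stress.

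The promoters of 4 members are shown because these members carry the main contrasts below. Krt79 and Krt42 were the keratins past the threshold in both tissues. In HFSC Krt42 passed the filter on low values through eKO libraries alone, so its call there could only be higher. Krt71 and Krt73 are inner root sheath keratins, both of type II, whose ratio did not overlap between genotypes in HFSC. Most of the other keratin ratios computed did not overlap there either. The sequences are the 250 bases before the annotated transcript start, credited to RefSeq in build GRCm38.p6 and written 5′ to 3′ on the gene's strand, which is the minus strand for all 4. Krt79 lies at chr15:101940325-101940574, Krt42 at chr11:100269952-100270201, Krt71 at chr15:101743098-101743347 and Krt73 at chr15:101802361-101802610. Capitals mark TATAAA, the core of a TATA box.
Krt79: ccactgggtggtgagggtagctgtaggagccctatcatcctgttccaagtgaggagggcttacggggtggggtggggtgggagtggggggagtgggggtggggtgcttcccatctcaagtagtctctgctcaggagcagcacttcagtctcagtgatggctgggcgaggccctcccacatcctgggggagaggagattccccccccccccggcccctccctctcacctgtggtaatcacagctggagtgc
Krt42: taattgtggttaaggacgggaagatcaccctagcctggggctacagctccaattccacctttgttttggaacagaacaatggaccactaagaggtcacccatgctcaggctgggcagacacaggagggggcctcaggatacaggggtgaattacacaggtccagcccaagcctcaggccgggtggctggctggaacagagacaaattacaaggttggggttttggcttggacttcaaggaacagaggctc
Krt71: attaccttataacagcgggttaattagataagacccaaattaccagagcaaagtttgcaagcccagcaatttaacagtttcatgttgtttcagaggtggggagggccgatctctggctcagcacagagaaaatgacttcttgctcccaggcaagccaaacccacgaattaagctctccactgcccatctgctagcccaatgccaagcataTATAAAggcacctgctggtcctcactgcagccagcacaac
Krt73: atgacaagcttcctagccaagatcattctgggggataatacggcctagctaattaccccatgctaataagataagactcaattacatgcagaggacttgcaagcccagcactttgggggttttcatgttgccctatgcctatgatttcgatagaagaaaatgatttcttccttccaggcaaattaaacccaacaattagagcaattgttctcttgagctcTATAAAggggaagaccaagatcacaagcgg

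In 37 promoter entries of 36 keratins this window was searched on both strands for TATAAA. The AP-1 site TGANTCA was searched in the same way. So was CTTTGA, the core bound by the LEF1 and TCF factors, and no 2 of the motifs overlap in the windows shown. The TATAAA letters stood at -40 in Krt71 and at -30 in Krt73, counted to the first base of the motif from the start site, and neither Krt79 nor Krt42 held any of the 3 motifs in the window. TATAAA was present in 17 of the 37 keratin entries (45.9%) and in 12.4% of 32851 promoter windows of all genes. TGANTCA was present in 2 keratin entries (5.41%, against 6.75% of all windows) and CTTTGA in 9 (24.3%, against 13.8%). Several entries share ancestry through gene duplication, so these shares are descriptions of letters in a window.

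Skin libraries held 11640611 to 14163394 reads assigned to genes in controls and 8213632 to 16383486 in eKO. HFSC libraries held 6428488 to 6729777 and 6428584 to 9387378. The labels do not state that samples within a group came from separate animals, so p-values measure the spread between these samples. Grk2 itself was not past the threshold in either tissue, with 1099.7 to 1492 normalised counts in control skin and 980 to 1224 in eKO skin (limma adjusted p = 0.343), and 121 to 144 and 104 to 122 in HFSC (limma adjusted p = 0.501). All 10 bulge genes on a marker list were tested in the sorted libraries, where they summed to 41839 to 45420 in controls and 35578 to 39949 in eKO, with 1 higher and 1 lower. Of the sort markers, Cd34 differed by -0.08 (SE 0.10, limma adjusted p = 0.638) and Itga6, the α6 integrin, rose by 0.58 (SE 0.09, limma adjusted p = 5.10e-04). Lgr5, a receptor of follicle stem cells, was called lower, with a difference of -0.94 (SE 0.07, limma adjusted p = 2.85e-06). Markers of other cells also differed in eKO HFSC, where 10.7% of all genes tested were called higher and 8.74% lower. The 7 endothelial genes summed to 14.7 to 44.0 in controls and 1016 to 1209 in eKO, with 6 of 7 called higher. Of those 6, 5 passed the filter on low values through eKO libraries alone and had to be higher. The 6 leukocyte genes summed to 193 to 232 in controls and 831 to 1503 in eKO, with Itgam at 0, Cd74 higher and Lyz2 lower among 3 tested. The 5 mitosis genes summed to 753 to 837 and 1402 to 1510.5, with 1, Mki67, called higher. The 4 Y-linked genes summed to 2340 to 2476 in controls and 704 to 831 in eKO, all 4 lower. In skin, 1 control library (control 5) and 1 eKO library (eKO 3) lacked Y-linked reads. The part of these markers in the keratin results below was not tested, except where a value without the libraries lacking Y-linked reads is given.

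Reads of close copies cannot always be told apart. Of the 54 members, 37 shared no stretch of 100 bases with any other gene's transcripts and 9 shared at least 10% of theirs. Krt6a and Krt6b shared 30.6% each, mostly with one another, and Krt16 shared 24.3%, so the split of reads within these is uncertain. Krt31, Krt34, Krt81, Krt86 and Krt87 of the hair shaft, and Krt8, made up the rest of the 9.

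Keratins took 2.42 to 2.49% of all assigned reads in control HFSC and 2.70 to 3.20% in eKO HFSC, and the groups did not overlap. In skin the same share was 2.07 to 4.02% in controls and 2.82 to 4.29% in eKO. Within the keratins, the sorted cells were dominated by Krt15, which made up 69.1% ± 0.474 (SD, n = 3) of keratin reads in controls and 51.4% ± 1.04 in eKO. In skin Krt15 made up 7.22% ± 2.86 (SD, n = 5) and 3.39% ± 1.33. The basal class as a whole held 93.7% ± 0.402 of keratin reads in control HFSC and 84.6% ± 1.00 in eKO, with no overlap between libraries. Suprabasal keratins held 2.53% ± 0.562 in control HFSC and 8.11% ± 0.472 in eKO, and stress keratins 2.70% ± 0.134 and 4.87% ± 0.514. Type I chains gave 79.4% ± 0.487 of keratin reads in control HFSC and 70.8% ± 0.405 in eKO, whereas in skin they gave 44.3% ± 1.05 and 43.5% ± 1.47. Shares of a fixed total depend on one another, so a larger share of one class lowers the others without any change in their levels.

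**Figure D1:**
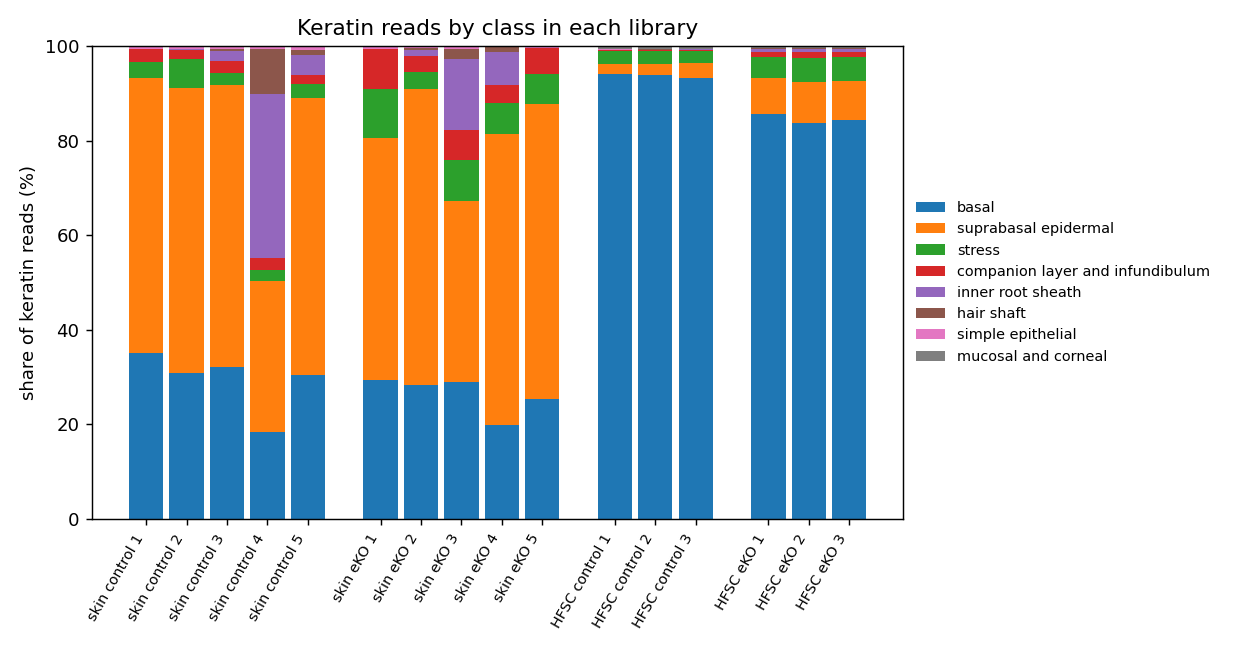
Share of keratin reads (%) held by each keratin class in each of the 16 libraries, stacked to the total. The basal class fills 93.3 to 94.1% in control HFSC and 83.7 to 85.7% in eKO HFSC, and in skin the inner root sheath class reaches 34.6% in control 4 and 15.2% in eKO 3.

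Levels can be ranked between genes only per length. On the scale of normalised counts per kilobase of exon, control HFSC held Krt15 at 64700, Krt5 at 14170, Krt14 at 5506 and Krt17 at 2632, followed by Krt10 at 962. In eKO HFSC the first 5 kept this order, at 59900 for Krt15, 20330 for Krt5, 13460 for Krt14, 5782 for Krt17 and 2664 for Krt10, and Krt79 came to the seventh place at 464. In control skin the order was Krt10 (36720), Krt77 (27550), Krt5 (23910), Krt15 (13590) and Krt14 (13190). In eKO skin Krt10 (46920), Krt77 (27860) and Krt5 (26880) came first, Krt14 was at 21160, Krt17 at 12250 and Krt15 at 7829. These orders are over group means, and the library values given below for Krt14 and Krt15 in control skin overlap.

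Differences between genotypes are given on the log2 scale of normalised count + 1, eKO minus control, and a gene was called at an adjusted p under 0.05 over all genes tested. A gene was tested where its normalised count reached 10 in at least 3 HFSC or 5 skin libraries. In HFSC, 31 of the 54 keratins were tested and 21 were called, 20 higher and 1 lower in eKO. Of all 13784 genes tested in HFSC, 19.4% were called, 10.7% higher and 8.74% lower. Those 2673 calls became 1519 without control 1, 1541 without control 2 and 1769 without control 3. The groups' libraries did not overlap for 26 of the 31 keratins tested, 23 higher and 3 lower, against 36.3% of all genes, 18.9% higher and 17.4% lower. The median difference was 1.45 over the 31 members and -0.03 over all genes tested. Krt4, Krt6b, Krt35, Krt42 and Krt90 passed the filter on eKO libraries alone, so they had to be higher there, and these counts and medians describe members that passed and not the family. The 23 members not tested included 8 at 0 in all 6 libraries (Krt9, Krt20, Krt34, Krt40, Krt76, Krt80, Krt81 and Krt88), where 0 reads allow up to 3, and none of the 23 exceeded 24.5 in a library. In these bulk libraries a change in the number of cells of a type and a change in RNA per cell cannot be told apart.

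Among basal keratins the 2 partners of the basal pair rose in eKO HFSC and Krt15 was not past the threshold. Krt14, the type I basal chain, was at 9520.0, 10096 and 9424 in controls and 25740.1, 21719.7 and 23548 in eKO. Every eKO library lay above every control, and the difference was 1.29 (SE 0.07, limma adjusted p = 1.62e-07). Krt5, its type II partner, was at 30680.3, 30911 and 31806 in controls and 49922, 41563 and 42505 in eKO. It too was higher in all eKO libraries, by 0.52 (SE 0.07, limma adjusted p = 3.25e-04). Krt15 was at 112171, 116724 and 114074 in controls and 119551, 95754 and 102218 in eKO. The library eKO 1 was the highest of the 6 and the other 2 eKO libraries the lowest, and the difference was -0.12 (SE 0.07, limma adjusted p = 0.292). Without eKO 1 it was -0.21 (limma adjusted p = 0.00281). The number of Krt14 reads per Krt15 read was 0.0826 to 0.0865 in controls and 0.215 to 0.230 in eKO.

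The Krt1 and Krt10 pair of the spinous layer rose in eKO HFSC, and limma called no other suprabasal member. Krt1 was at 750.0, 1149.7 and 1396 in controls and 10018, 9555 and 9565 in eKO. Its eKO libraries agreed closely and none came near the controls, and the difference was 3.19 (SE 0.17, limma adjusted p = 8.27e-08). Krt10 was at 1529, 1898 and 2673 in controls and 5871, 5561 and 5462 in eKO, also without overlap. It differed by 1.51 (SE 0.15, limma adjusted p = 2.40e-05). Krt77, another type II suprabasal chain, was at 926, 961 and 1061 in controls and 1446, 1176 and 1072 in eKO. The groups lay next to each other without overlap, and the difference was 0.32 (SE 0.13, limma adjusted p = 0.102). Krt2 of the upper spinous layer differed by 1.70 (SE 0.60, limma adjusted p = 0.0656), and edgeR and DESeq2 called it, with adjusted p of 0.0466 and 0.0208. Krt78 differed by -2.91 (SE 1.02, limma adjusted p = 0.0624). The ratio of Krt1 to Krt77 counts was 0.810 to 1.32 in control and 6.93 to 8.93 in eKO HFSC. Beside these, a list of 10 non-keratin epidermal markers had 7 genes tested, 6 higher and none lower. The share of all genes tested in HFSC was 10.7% called higher and 8.74% lower. The list summed to 2600.5 to 3102 in controls and 4656 to 5536 in eKO, with Calm4 and Sbsn at 0. Its part in the Krt1 and Krt10 values was not tested. Flg, which makes the granular layer protein filaggrin, had a mean of 3.40 ± 1.22 (SD, n = 3) in controls and 7.69 ± 1.89 in eKO, and was not tested.

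Of the 5 stress keratins, Krt6a, Krt16 and Krt17 rose in eKO HFSC. Krt6b and Krt42 were also called, but as they passed the filter on eKO libraries alone they could only be called higher. Krt17, a type I chain of the outer root sheath that is also injury-induced, was the most abundant of them. Its values were 4194, 4181 and 3872 in controls and 8763, 9051 and 9091 in eKO. The libraries formed 2 tight groups that differed by 1.14 (SE 0.07, limma adjusted p = 4.20e-07). Krt16 was at 6.98, 17.9 and 21.0 in controls and 234, 193 and 191 in eKO. Its levels were low in controls and higher in every eKO library, by 3.79 (SE 0.41, limma adjusted p = 4.36e-05). Krt6a, a type II partner of Krt16 and Krt17, was at 393, 325 and 379.9 in controls and 641, 685 and 667 in eKO. All 3 eKO libraries were above the controls, by 0.86 (SE 0.14, limma adjusted p = 7.81e-04), and the reads it shares with Krt6b limit this value. Krt6b was at 0, 0 and 1.00 in controls and 33.4, 27.4 and 14.9 in eKO. Against a floor of 3 reads per library its eKO mean was at least 8.27-fold higher (limma adjusted p = 0.0072). Krt42, a type I keratin placed with this class as a relative of Krt17, was at 6.98, 5.26 and 8.998 in controls and 112, 66.9 and 95.9 in eKO. It differed by 3.51 (SE 0.47, limma adjusted p = 2.48e-04), and all 3 eKO libraries were above all controls.

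Krt79 marks the upper follicle, where its cells line the opening of the hair canal and the sebaceous duct. Its HFSC values were 129.6, 191 and 166 in controls and 2478, 1961 and 2175 in eKO. Every eKO library held more than 10 times the highest control, and the difference was 3.77 (SE 0.16, limma adjusted p = 2.66e-08). Krt75, the type II keratin of the companion layer between the outer and inner root sheaths, was at 53.9, 67.3 and 76.0 in controls and 141, 156 and 145 in eKO. It differed by 1.16 (SE 0.26, limma adjusted p = 0.00765). A list of 5 non-keratin markers of the isthmus and infundibulum had 4 members tested, 3 higher and 1 lower. The share of all genes tested in HFSC was 10.7% called higher and 8.74% lower. This list summed to 2638 to 2792.5 in controls and 2699 to 3077 in eKO, with Plet1 at 0. Within it Cst6 differed by 3.18 (SE 0.27, limma adjusted p = 6.13e-06) and Defb6 by 3.42 (SE 0.44, limma adjusted p = 1.73e-04), while Lgr6 differed by -0.40 (SE 0.09, limma adjusted p = 0.00895). The 10 sebaceous markers summed to 2356.5 to 2480.4 in controls and 9819 to 11126 in eKO, with 6 of 8 tested higher, Cidea among them through eKO libraries alone. The part of these cell types in the Krt79 result was not tested.

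Of 8 inner root sheath keratins 7 were tested and 5 were called higher in eKO HFSC, beside 10.7% of all genes tested there. Krt73, a type II keratin of the inner root sheath cuticle, was at 34.9, 21.0 and 18.0 in controls and 757, 545 and 612 in eKO. The eKO libraries were far above the controls, by 4.68 (SE 0.28, limma adjusted p = 2.48e-07). Krt71, the type II chain found in all layers of the sheath, was at 77.8, 139 and 104 in controls and 553, 523 and 576 in eKO. It differed by 2.39 (SE 0.22, limma adjusted p = 9.35e-06). Krt25, a type I partner of the sheath keratins, was at 54.9, 42.1 and 52.0 in controls and 129.6, 162 and 120.4 in eKO, and the difference was 1.45 (SE 0.28, limma adjusted p = 0.00329). The type I chains Krt27 and Krt28 had lower counts. Krt27 was at 24.9, 23.1 and 29.0 in controls and 63.7, 82.2 and 53.3 in eKO, a difference of 1.32 (SE 0.38, limma adjusted p = 0.0281). Krt28 was at 10.97, 8.42 and 18.0 in controls and 60.7, 37.3 and 33.0 in eKO, a difference of 1.74 (SE 0.52, limma adjusted p = 0.0333). Both lost their call with no filter on low values and in most fits without 1 library. For Krt27 these were all fits but that without eKO 3, with adjusted p up to 0.0896, and for Krt28 those without control 1 or 2 or eKO 1 or 2, with adjusted p up to 0.114. The remaining sheath members were not called or had too few reads to be tested. Krt26, a type I cuticle chain, was at 12.96, 37.9 and 19.0 in controls and 6.07, 12.1 and 7.46 in eKO and differed by -1.27 (SE 0.66, limma adjusted p = 0.204). Krt72, the type II cuticle keratin next to Krt73, was at 0.997, 0 and 0 in controls and 0, 7.67 and 1.07 in eKO and was not tested.

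Hair shaft keratins were at or near 0 in most sorted libraries, and 15 of the 16 were not tested. The exception was Krt35, a type I hair keratin made early in the matrix and the shaft cuticle, at 0, 0 and 0 in controls and 227, 162 and 165 in eKO. No control library held a read, and the eKO mean was at least 60.6-fold higher than a floor of 3 reads per library (limma adjusted p = 4.29e-06). Krt35 passed the filter on eKO libraries alone, so it could only be called higher. Krt31 followed with 1.99, 0 and 3.00 in controls and 14.4, 0 and 24.5 in eKO, and Krt33a with 1.99, 1.05 and 4.00 in controls and 6.07, 0 and 11.7 in eKO. These 2 were too low in most libraries to be tested. Of 13 non-keratin hair matrix genes 6 were tested and 4 were higher in eKO HFSC, Padi3 among them through eKO libraries alone. The share of all genes tested in HFSC was 10.7% called higher. The list summed to 679 to 855 in controls and 1622.5 to 1867 in eKO, with Tchh, Krtap3-1, Krtap4-16 and Krtap6-2 at 0, and its part in the Krt35 and sheath values was not tested.

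The remaining classes held 4 more calls in HFSC. Krt24 was the only keratin called lower. It was at 1106, 1096 and 1022 in controls and 566, 636 and 601 in eKO, and the groups were well apart, by -0.84 (SE 0.11, limma adjusted p = 2.63e-04). Krt4, a type II keratin of mucosal epithelia, was at 3.99, 3.16 and 2.00 in controls and 50.8, 34.0 and 35.2 in eKO and differed by 3.35 (SE 0.65, limma adjusted p = 0.00311). Its usual partner Krt13 was at 0, 0 and 3.00 in controls and 9.10, 2.19 and 0 in eKO and was not tested. Krt23 was at 22.9, 23.1 and 21.0 in controls and 155, 150.2 and 88.4 in eKO, a difference of 2.46 (SE 0.35, limma adjusted p = 3.95e-04). Krt90 was at 1.99, 3.16 and 2.00 in controls and 80.4, 40.6 and 65.0 in eKO, a difference of 4.18 (SE 0.62, limma adjusted p = 5.09e-04). Its eKO mean was 20.3-fold over a floor of 3 reads per library. The controls held up to 3 reads themselves, so this is not a lower bound. Krt4 and Krt90 passed the filter on eKO libraries alone, so they could only be called higher. Krt19, a simple epithelial keratin also found in the bulge, was at 74.8, 64.2 and 53.0 in controls and 45.5, 49.3 and 57.5 in eKO. Its groups overlapped and the difference was -0.32 (SE 0.33, limma adjusted p = 0.54).

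**Figure D2:**
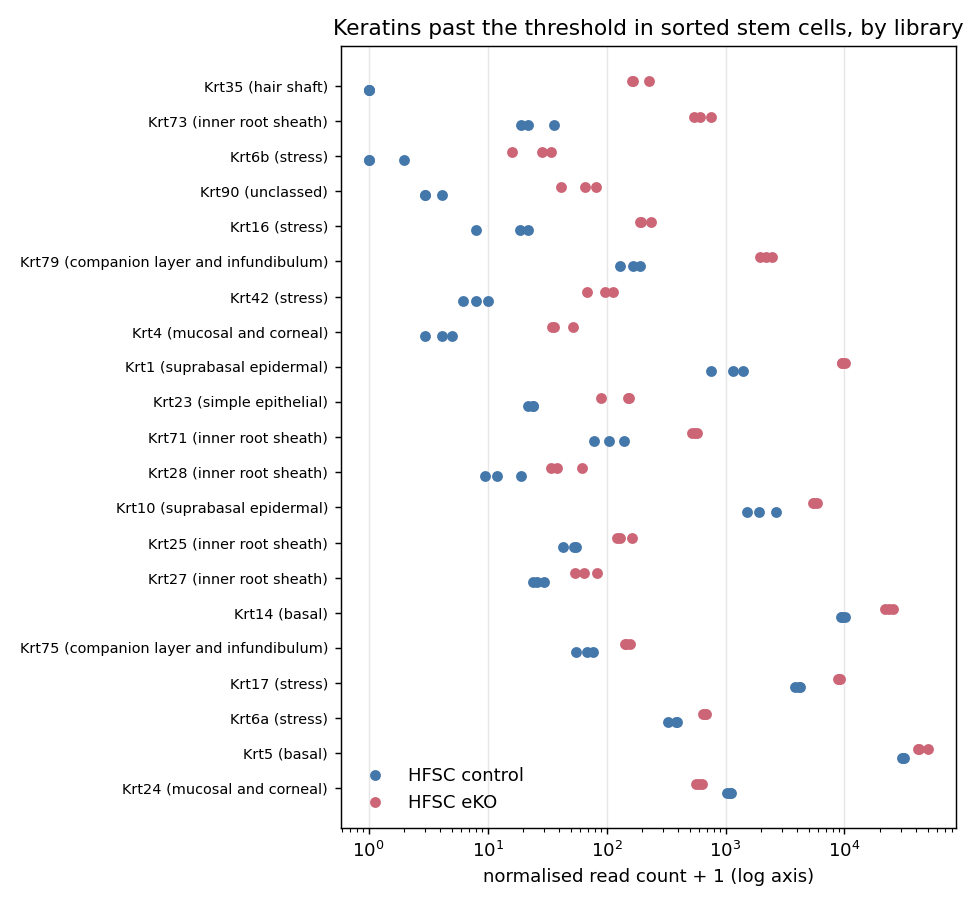
Normalised read count + 1 (log axis) of the 21 keratins past the threshold in HFSC, 1 point per library, 3 control and 3 eKO. Krt35 sits at 0 in the 3 controls and at 162 to 227 in eKO, Krt79 lies at 129.6 to 191 in controls and at 1961 to 2478 in eKO, and Krt24 is the one gene whose eKO points lie to the left.

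In skin 45 of the 54 keratins were tested and 2, Krt79 and Krt42, were called, both higher in eKO. Of 16589 genes tested in skin 0.374% were called, 0.229% higher and 0.145% lower. At an unadjusted p under 0.05 there were 8 keratins, beside 14.2% of all genes tested in skin. Of the keratins edgeR called 1 and DESeq2 called 4, and of all genes they called 54 and 656. The groups did not overlap for 3 keratins, all higher in eKO, against 4.18% of all genes, 1.74% higher and 2.45% lower. The median difference was -0.06 over the 45 members and 5.91e-05 over all genes. Of the 9 members not tested Krt80 was at 0 in all 10 libraries, as it was in HFSC, and Krt32 reached 567 in control 4.

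Krt79 was at 6188, 6105, 9142, 4626 and 5053 in controls and 26802, 13422, 20474, 16393 and 24884 in eKO skin. The lowest eKO library was above the highest control, and the difference was 1.71 (SE 0.23, limma adjusted p = 0.0206). This call was lost in 7 of 18 alternative fits, 6 of which left out a single library (control 1, 2 or 5, or eKO 1, 3 or 5) and the other both libraries without Y-linked reads, where the difference was 1.63 (limma adjusted p = 0.119). Krt42 was at 0, 12.6, 3.13, 1.87 and 7.60 in controls and 73.0, 30.4, 65.5, 54.3 and 45.3 in eKO skin, again without overlap. It differed by 3.62 (SE 0.63, limma adjusted p = 0.042). The call of Krt42 was lost in 13 of 18 alternatives, among them edgeR (adjusted p = 0.0578) and every fit without 1 library except that without control 2. Without both libraries lacking Y-linked reads the difference was 3.79 (limma adjusted p = 0.145). Beside Krt79, the 5 isthmus and infundibulum markers summed to 5903 to 7947 in controls and 11465 to 20953 in eKO skin, with Plet1 at 0. Of the 4 tested only Cst6 was called, at 1.71 (SE 0.25, limma adjusted p = 0.0308), and its mean of 3763 ± 653.6 (SD, n = 5) in controls and 12929 ± 4608 in eKO made up most of the sum. Lgr6 of that list had a difference in the other direction, -0.64 (SE 0.15, limma adjusted p = 0.108). The 10 sebaceous markers summed to 14510 to 63068 and 43019 to 67349, with 2 of 10 called higher. Beside these lists, 0.229% of all genes tested in skin were called higher. The part of these lists in the result was not tested.

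The other members of the class in which Krt42 was placed, the stress keratins, were higher in most eKO skin libraries. None of them passed the threshold with limma. Krt17 was at 6729, 10316, 8593, 9617 and 8346 in controls and 22512, 11933, 26813, 13164 and 20556 in eKO skin. These groups did not overlap, and the difference was 1.07 (SE 0.23, limma adjusted p = 0.082), or an adjusted p of 3.60e-04 with DESeq2. Krt6a was at 1008, 4272, 1027, 882 and 964 in controls and 7908, 2253, 6590.0, 6224 and 5293 in eKO skin. Control 2 stood at more than 4 times the other controls and above eKO 2. The Krt6a difference was 2.00 (SE 0.46, limma adjusted p = 0.0975), and without control 2 it was 2.43 (limma adjusted p = 0.0258). DESeq2 called it with all libraries (adjusted p = 0.00903). Krt16 was at 208, 4436, 544, 148 and 162 in controls and 2096, 912, 2346, 9281 and 2612 in eKO skin, with control 2 again high. Its difference was 2.62 (SE 0.92, limma adjusted p = 0.231). Krt6b was at 10.4, 2895, 4.18, 0 and 4.75 in controls and 406, 42.2, 175, 2824 and 254 in eKO skin. Control 2 and eKO 4 held nearly equal amounts, and the difference was 4.22 (SE 1.89, limma adjusted p = 0.346).

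No basal or suprabasal keratin was called in skin by limma, edgeR or DESeq2. At an unadjusted p under 0.05 there were 2 of the 3 basal and none of the 5 suprabasal members tested. Over all genes tested in skin that share was 14.2%. Krt14 was at 15683, 34698, 30259.8, 16193 and 19109 in controls and 34093, 34280.5, 39175, 35884 and 42525 in eKO skin. Control 2 lay within the eKO range and the other 4 controls below it, a difference of 0.76 (SE 0.25, limma adjusted p = 0.203). Krt15 was at 26536, 13567, 29555, 21502 and 28867 in controls and 14295, 20231, 15633, 7749 and 11256 in eKO skin. Control 2 was lower than 3 of the 5 eKO libraries while the other controls were above all of them, and the difference was -0.81 (SE 0.29, limma adjusted p = 0.237). The number of Krt14 reads per Krt15 read was 0.591 to 2.56 in control and 1.69 to 4.63 in eKO skin, and the ranges overlapped through control 2. Krt5 was at 44134, 59649, 67981, 42301 and 48599.7 in controls and 45334, 68386, 65102, 53127 and 63344 in eKO skin, a difference of 0.18 (SE 0.23, limma adjusted p = 0.778).

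Krt1 and Krt77, both type II suprabasal chains, departed in opposite directions in 1 skin library, eKO 4. Krt10, their type I partner, was at 59788, 89773, 98940.3, 60389.7 and 79222 in controls and 71387, 114779, 64779, 130951 and 114057 in eKO skin, a difference of 0.33 (SE 0.31, limma adjusted p = 0.683). Krt77 was at 65707, 88567, 109695, 55876 and 83869 in controls and 66238, 113162, 77912, 21335 and 129570.0 in eKO skin. The lowest value was that of eKO 4, and the difference was -0.18 (SE 0.47, limma adjusted p = 0.895). Krt1 was at 15915, 30458, 23406, 18188 and 19468 in controls and 22331, 41167, 13046, 145869 and 40653 in eKO skin. The same eKO 4 was by far the highest, and the difference was 0.83 (SE 0.54, limma adjusted p = 0.532). The ratio of Krt1 to Krt77 was 0.213 to 0.344 in controls and 6.84 in eKO 4, while the other eKO libraries stayed between 0.168 and 0.364. This library also had the highest Krt16 and the lowest Krt15 of the 10.

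**Figure D3:**
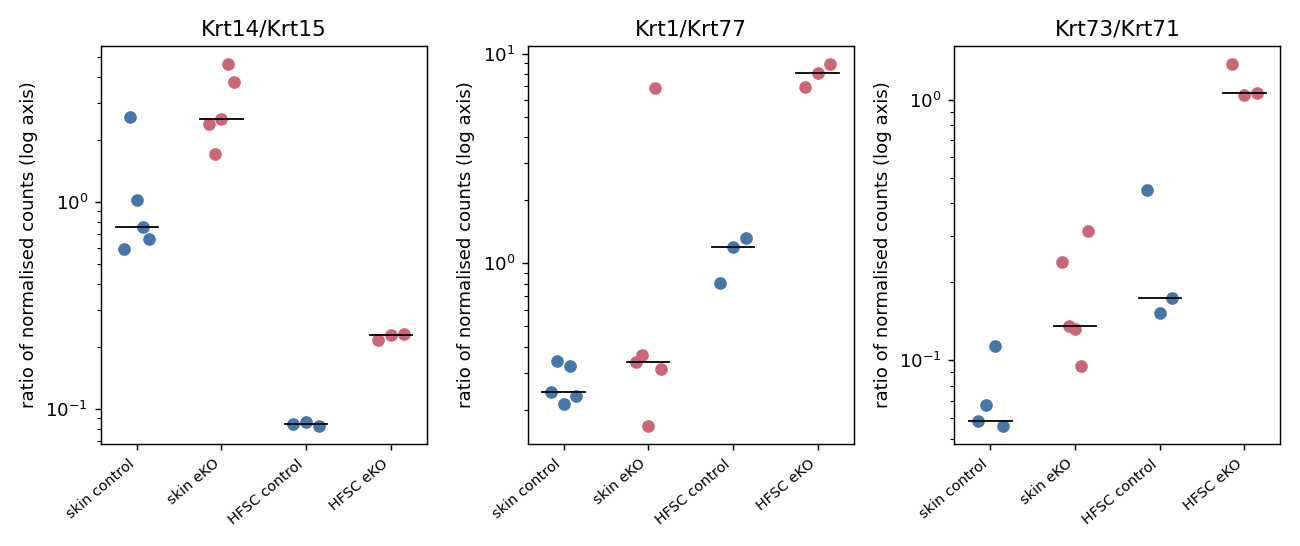
Ratios of normalised counts between keratin pairs (log axis) in the 4 groups, 1 point per library with the median of each group as a bar. Krt14 to Krt15, Krt1 to Krt77 and Krt73 to Krt71 separate the genotypes in HFSC, as do most of the keratin ratios computed. In skin the ratios drawn overlap, with eKO 4 alone at 6.84 for Krt1 to Krt77. The Krt73 to Krt71 ratio of skin control 1 is 0 and is not drawn.

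Inner root sheath and hair shaft keratins varied by orders of magnitude between skin libraries of 1 genotype. None of the 8 sheath and 14 tested shaft keratins was called by limma, edgeR or DESeq2, and none had an unadjusted p under 0.05. Krt71 was at 2.84, 329.7, 4617, 79018 and 8093 in controls and 37.4, 3216, 31620.0, 19388 and 79.0 in eKO skin. Both the lowest and the highest of the 10 libraries were controls, and the difference was 0.14 (SE 2.72, limma adjusted p = 0.988). Krt25 was at 0, 115, 1252, 22919.5 and 2507 in controls and 11.6, 1017, 9769, 6269 and 36.6 in eKO skin. Krt33a of the shaft was at 0.946, 21.9, 220.3, 5763 and 376 in controls and 0.891, 169, 907, 432 and 1.46 in eKO skin, and Krt83 of the shaft at 0.946, 16.02, 255, 5811 and 461 in controls and 2.67, 169, 946, 472 and 1.46 in eKO skin. All 8 sheath and all 14 tested shaft keratins were highest in control 4 and second in eKO 3. Controls 1 and 2 and eKO 1 and 5 were the 4 lowest libraries for 8 of 8 sheath and 13 of 14 shaft members. Both genotypes had libraries at each end. The 13 non-keratin hair matrix genes, with Tchh at 0, summed to 769 to 41410.0 in controls and 924 to 13547 in eKO skin.

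With the mean log2 level of those hair matrix genes as a covariate, the SE of the sheath keratins was 0.18 to 0.79, against 1.92 to 2.72 without it. Their differences then ranged from -0.27 to 1.55, and the lowest limma adjusted p was 0.131, that of Krt73. The shaft keratins ranged from -0.97 to 0.86 with the covariate, with a lowest adjusted p of 0.285. Krt79 and Krt42 were again the 2 keratins called in that fit. Per Krt71 read, Krt73 was at 0 to 0.113 in control and 0.0950 to 0.315 in eKO skin, and at 0.152 to 0.449 and 1.04 to 1.37 in HFSC. The ratio of Krt27 to Krt71 also did not overlap in HFSC and was lower in eKO. It was at 0.167 to 0.321 in controls and 0.0924 to 0.157 in eKO. In skin its ranges of 0.193 to 0.667 and 0.143 to 0.296 overlapped. Krt25 to Krt71 overlapped in HFSC, at 0.303 to 0.705 in controls and 0.209 to 0.310 in eKO. Most of the keratin ratios computed did not overlap in HFSC, and no share over other gene pairs was computed.

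Of the keratins called in HFSC only Krt79 and Krt42 were also called in skin. Among those not called in skin were the hair sheath and shaft members and Krt75, Krt24 and Krt90. Krt73 was at 0, 19.4, 311, 8937 and 453 in controls and 8.91, 438, 4183, 1842 and 24.9 in eKO skin, a difference of 1.01 (SE 2.41, limma adjusted p = 0.883). Krt27 was at 1.89, 75.0, 1063, 19095 and 1561 in controls and 5.34, 840.3, 8503, 4398 and 23.4 in eKO skin, and Krt28 at 4.73, 12.6, 190.1, 5555 and 264 in controls and 5.34, 203, 1473, 707 and 11.7 in eKO skin. For all 3, as for Krt71, control 4 was the highest library, followed by eKO 3 and eKO 4. Krt35 was at 4.73, 10.96, 121, 4973 and 329.8 in controls and 0.891, 131, 1104, 687 and 2.92 in eKO skin, a difference of -0.84 (SE 2.22, limma adjusted p = 0.895). Krt75 was at 581, 608, 994, 6107 and 1273 in controls and 401, 931, 5306, 2062 and 339 in eKO skin, a difference of -0.20 (SE 0.83, limma adjusted p = 0.938). Krt75, of the companion layer, was also highest in control 4 and eKO 3. Krt24 was at 145, 209.9, 116, 82.1 and 437 in controls and 159, 169, 317, 171 and 208 in eKO skin, a difference of 0.25 (SE 0.40, limma adjusted p = 0.817). Krt90 was at 0.946, 10.1, 5.22, 37.3 and 22.8 in controls and 9.80, 2.94, 82.2, 40.3 and 5.85 in eKO skin, a difference of 0.61 (SE 0.98, limma adjusted p = 0.82). Both genes had overlapping groups. Among members called in neither tissue, Krt222 was at 49.2, 15.2, 43.9, 31.7 and 24.7 in controls and 30.3, 31.4, 8.35, 12.2 and 21.9 in eKO skin and at 45.9, 59.96 and 38.0 in controls and 53.8, 24.1 and 22.4 in eKO HFSC. Krt7, a keratin of simple and glandular epithelia, was at 33.1, 25.3, 25.1, 31.7 and 39.0 in controls and 66.8, 21.6, 53.9, 21.5 and 35.1 in eKO skin.

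**Figure D4:**
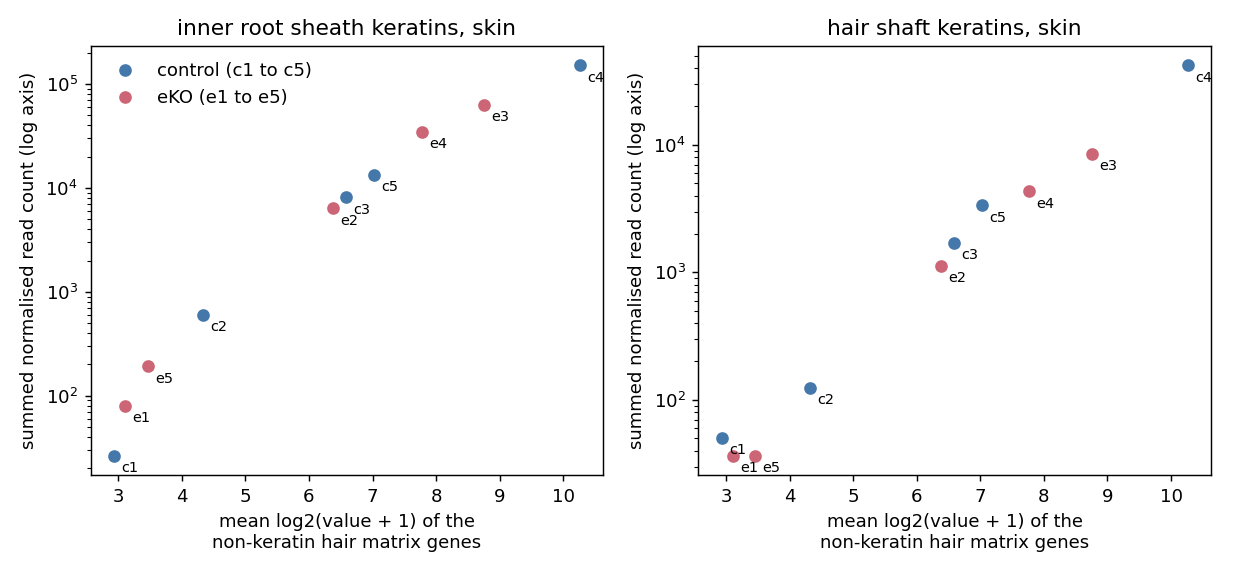
Summed normalised read count (log axis) of the inner root sheath keratins (left) and the hair shaft keratins (right) in the 10 skin libraries against the mean log2(value + 1) of the non-keratin hair matrix genes. Control 4 is highest in both panels, with sums of 151077 and 41975. On the horizontal axis controls span 2.931 to 10.26 and eKO libraries 3.106 to 8.752.

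The genotype effect was then compared between the tissues for the 30 keratins tested in both. The tables were normalised separately and differ in age label, extraction and sort, so levels were not tested across them, and the difference of the 2 effects carries all of those. The effect differed for 3 of the 30 keratins, all with a larger effect in HFSC. Of 13227 genes tested in both tissues 5.62% were called, 3.44% with a larger and 2.18% with a smaller effect in HFSC. Krt79 rose in both tissues and by more in HFSC, a difference in effect of 2.06 (SE 0.33, limma adjusted p = 0.00116). Krt23 was at 1471, 1750.4, 2499, 2392 and 1945 in controls and 1462, 1928, 2131, 1230.1 and 1683 in eKO skin, where its difference was -0.25 (SE 0.18, limma adjusted p = 0.581). Its effect was larger in HFSC by 2.71 (SE 0.30, limma adjusted p = 4.53e-05). Krt4 was at 7.57, 5.06, 25.1, 3.73 and 12.4 in controls and 15.1, 12.8, 20.55, 8.43 and 16.1 in eKO skin, a difference of 0.63 (SE 0.47, limma adjusted p = 0.587). Its effect was larger in HFSC by 2.71 (SE 0.72, limma adjusted p = 0.0368), a call lost in 10 of 23 alternative fits, each of which left out 1 library. These were control 5 and eKO 1, 2, 4 and 5 of skin, and all 3 controls and eKO 1 and 3 of HFSC, with differences of 2.51 to 2.88. Krt4 had entered the HFSC test through its eKO libraries alone, which fixed the sign of its effect there. The fit with no filter on low values was not among those that lost the call.

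The 21 keratins called in HFSC were all tested in skin, and for 14 of them the 95% interval of the skin difference included 0. For most of these the difference between tissues was not established. Krt1 differed in effect by 2.36 (SE 0.72, limma adjusted p = 0.0661) and Krt10 by 1.18 (SE 0.36, limma adjusted p = 0.0681). Without eKO 4 in skin both were past the threshold, Krt1 at 2.85 (limma adjusted p = 0.00179) and Krt10 at 1.29 (limma adjusted p = 0.0396), and Krt10 also without control 3 of HFSC (1.40, limma adjusted p = 0.0495). DESeq2 called Krt10 at 1.14 (adjusted p = 0.0166), and Krt1 passed with each tissue's own SE (limma adjusted p = 0.0264). Krt17 and its relative Krt42 did not pass this test, with differences in effect of 0.07 (95% interval -0.59 to 0.73) and -0.11 (95% interval -1.99 to 1.77). For Krt73 the interval of that difference ran from -3.10 to 10.43. For Krt35 it ran from 2.12 to 14.61, with a limma adjusted p of 0.108, and DESeq2 called it at 11.45 (adjusted p = 0.00312). Krt35, like Krt42, had entered the HFSC test through its eKO libraries alone, which fixed the sign of its HFSC effect. The skin SEs of Krt73 and Krt35 were 2.41 and 2.22. Leaving out control 2 of skin put Krt6a past the threshold at -1.57 (limma adjusted p = 0.0353), and leaving out control 5 of skin put Krt24 past it at -1.43 (limma adjusted p = 0.0348).

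**Figure D5:**
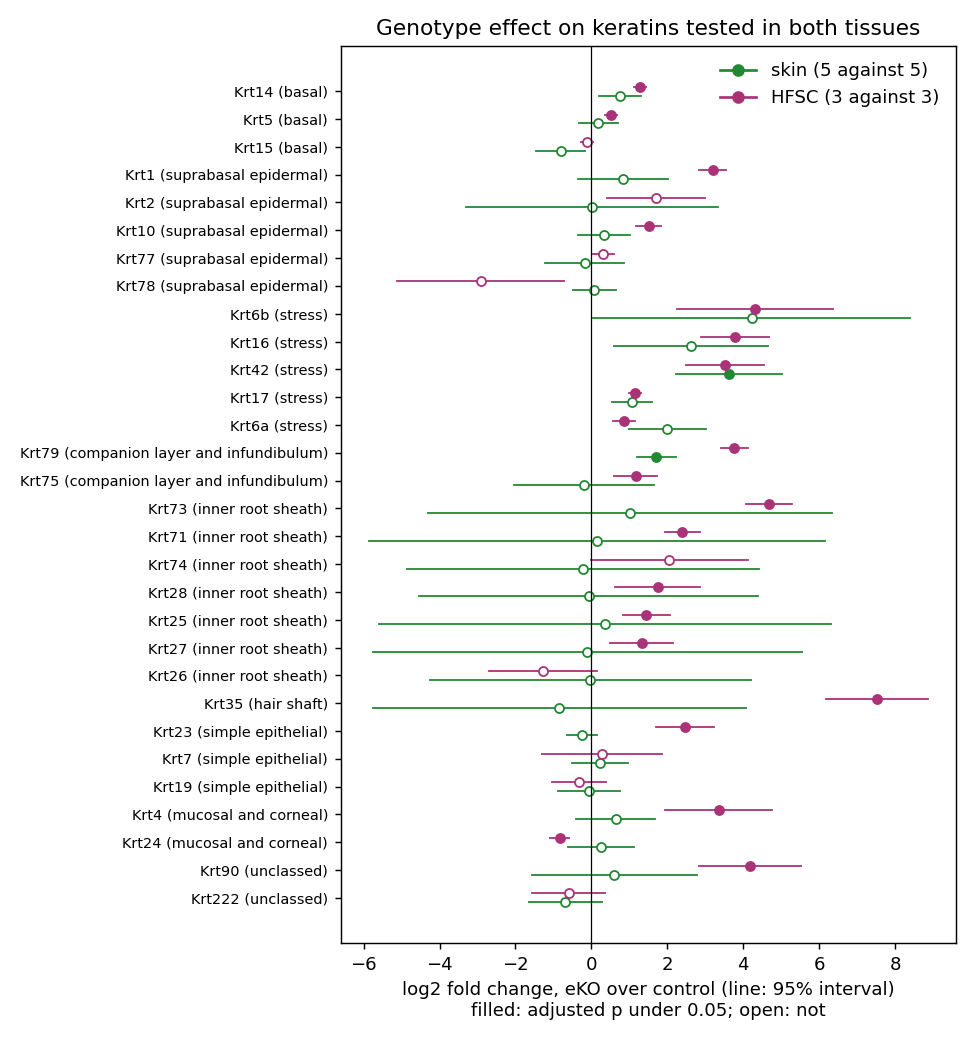
Log2 fold change, eKO over control, with 95% intervals for the 30 keratins tested in both tissues, 5 against 5 libraries in skin and 3 against 3 in HFSC. Filled points passed an adjusted p of 0.05. Krt79 and Krt42 are filled in both tissues, Krt42 in HFSC after passing the filter on low values through eKO libraries alone. The hair keratins have skin intervals several log2 units wide.

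Proteins that bind, crosslink or modify keratin filaments were taken as a list of 28 genes, of which 27 were in the tables. In HFSC 19 were tested, 10 were higher and 2 lower in eKO, with a list median of 0.34. Of all genes tested in HFSC 10.7% were called higher and 8.74% lower. Tchhl1, a trichohyalin-like gene, differed by 3.79 (SE 0.83, limma adjusted p = 0.00678), and Tgm3, a transglutaminase of the inner root sheath and cornified layer, by 3.30 (SE 0.42, limma adjusted p = 1.63e-04). Vim, the mesenchymal intermediate filament vimentin, differed by 2.44 (SE 0.51, limma adjusted p = 0.00492), and Sfn, the adaptor protein stratifin, by 1.498 (SE 0.09, limma adjusted p = 2.95e-07). Flg2 of the cornified layer fell by 4.85 (limma adjusted p = 0.00125), and Tgm5 fell by 0.998 (limma adjusted p = 6.18e-06). Ivl, Pkp1, Lmna, Jup, Dsp and Plec were the other genes called higher. In skin none of 23 tested was called by limma, edgeR or DESeq2, and 5 had an unadjusted p under 0.05, beside the 14.2% of all skin genes.

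Of 22 transcription factors known for keratin gene control 21 were tested in HFSC, 11 were higher and none lower in eKO, with a median of 0.83. The share of all genes tested in HFSC was 10.7% called higher and 8.74% lower. Of the 11, Cebpb passed the filter on eKO libraries alone, so it had to be higher there. It differed by 2.39 (SE 0.65, limma adjusted p = 0.0222), and Foxn1, a factor of hair keratin expression, by 2.08 (SE 0.58, limma adjusted p = 0.0237). Ovol1 differed by 1.80 (SE 0.20, limma adjusted p = 4.32e-05) and Klf5 by 1.71 (SE 0.16, limma adjusted p = 1.47e-05). Prdm1, Grhl3, Cebpa, Lef1, Grhl1, Hoxc13 and Tfap2c were the other 7. Trp63, the p63 master factor of stratified epithelia, was not past the threshold, with 20190.0 ± 750.2 (SD, n = 3) in controls and 20204 ± 1435 in eKO (limma adjusted p = 0.996). In skin none of 21 tested was called by limma or edgeR. DESeq2 called 2 of them, beside 656 of all genes. An unadjusted p under 0.05 was found for 4, where the share of all genes was 14.2%.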

How the data were processed

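Poly-A selected skin RNA was sequenced as paired reads of 150 bases, and the sorted cells were made into Illumina-compatible libraries, per the labels' protocols. The submitters' processing notes name featureCounts and DESeq2 for the skin and build GRCm39 for both tissues, and the aligner and annotation are not given in the sources used here. Each deposited table holds normalised signal per gene, which the authors made by dividing read counts by 1 factor per library. All values above 0 returned to whole reads within 0.01 of a read. IDs were matched to symbols for 94.1% of skin and 91.3% of HFSC rows. The main test was limma 3.58.1 (R 4.3.3) with a trended prior on log2(value + 1), separately per tissue, with Benjamini-Hochberg adjustment over all genes tested. The difference between tissues used 1 fit over genes tested in both. edgeR 4.0.16 and DESeq2 1.42.0 were run on recovered reads as alternatives, and the code was tested on simulated data. Floors cover counting error only. Every library value is given for keratins past a threshold and for the 2 most abundant of each class, by the rule for named genes. Members and lists were chosen with earlier results of these data known. Exon lengths are from GENCODE M21, a build other than the files'.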

Additional observations from a re-analysis of the deposited data

Results flagged for a closer look

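Among the 5-library skin groups 90 member and group pairs were examined for a library far from the rest, and 2 had one. Chance alone gives such a library in about 1 in 20 groups. Krt6a reached 4272 normalised counts in skin control 2, against 882 to 1027 in the other controls, and the same library was highest among controls for Krt16 and Krt6b. Krt84, a hair shaft keratin, reached 471 in skin control 4, against 6.75 to 20.9 in the other controls, and that library was the highest for every tested hair shaft and inner root sheath keratin.

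The genotype effect differed between HFSC and skin for 3 keratins by limma's test of the difference. On the log2 scale the effect was larger in HFSC by 2.71 for Krt4 (limma adjusted p = 0.0368), 2.71 for Krt23 (limma adjusted p = 4.53e-05) and 2.06 for Krt79 (limma adjusted p = 0.00116). Krt4 passed the HFSC filter on eKO libraries alone, which fixed the sign of its HFSC effect, and its call was lost in 10 of 23 alternatives. Krt23 and Krt79 were higher in all 3 eKO HFSC libraries than in any control, and in skin Krt79 was higher in all 5 while the Krt23 ranges overlapped. The tissues also differ in labelled age, extraction and sort, which cannot be told apart from the tissue here.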

How the results depend on the processing

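The 2 keratin calls in skin became 1 with no filter on low values, 1 with edgeR and TMM factors, 1 with edgeR and library size only, and 4 with DESeq2, and ranged from 0 to 2 when 1 library was left out. Without both libraries lacking Y-linked reads limma called 0 keratins, with 7 at an unadjusted p under 0.05, and 0 of all genes. Neither skin call was kept under every alternative. Over all genes the 62 skin calls (38 higher) became 37 (29 higher) with no filter, 31 (22 higher) with library size only, 162 with the hair matrix covariate and 656 (332 higher) with DESeq2, and 10 to 57 without 1 library. The HFSC count of 21 ranged from 19 to 22 over all alternatives, and 19 of the calls were kept in every one, Krt27 and Krt28 being the exceptions. Among those 19, Krt4, Krt6b, Krt35, Krt42 and Krt90 had passed the filter on eKO libraries alone, which fixed their direction. Over all genes the 2673 HFSC calls (1468 higher) became 1519 (994 higher) without control 1, 1541 (994 higher) without control 2 and 1769 (1127 higher) without control 3, and 2714 (1274 higher) with library size only. The count of 3 keratins that differed between tissues became 5 with DESeq2 and ranged from 2 to 4 without 1 library, and Krt23 and Krt79 were kept in every alternative. Over all genes that comparison went from 743 (455 higher) to 1275 with DESeq2 and 680 (346 higher) with library size only, and to 484 without HFSC control 1, the lowest of 484 to 896 without 1 library. Of 1294 recomputed single-gene values 1241 kept their side of the threshold, 41 lost a call, 12 gained one and 0 reversed. The causes were not tested.

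HFSC replicate numbers are shared by the genotypes. With the replicate block the HFSC count was 22, 20 higher and 2 lower, with 21 shared with the fit without it, and 2696 of all genes were called against 2673. Same-numbered samples did not deviate together (correlations -0.0602, -0.018 and -0.0256). With 3 libraries a group this cannot settle whether the numbers pair them. Skin labels carry no numbers. With 3 libraries a group and controls at 0 to 9 reads for Krt4, Krt6b, Krt35, Krt42 and Krt90, fold sizes of these are poorly bounded.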
